A study of Mus musculus with 6 samples.

Results

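At 115 places in the mouse genome, H3K27ac peaks of wild-type and Ppp2ca-deficient hematopoietic stem cells joined into a region at least 2500 bp wide at the end of a protein-coding gene. H3K27ac is histone H3 acetylated at lysine 27. The peaks of 6 lists on chromosomes 1 to 19 and X were merged wherever they overlapped by at least 1 bp, which gave 104143 merged regions. Of these, 5489 held a peak from all 6 lists, and 3144 of the 5489 lay within 1000 bp of either end of a RefSeq GRCm38 protein-coding gene. The 115 wide gene-end domains are the 3.66% of those 3144 that reached 2500 bp. The other 3029 are called narrower regions here. The domains were thus selected on measured peak positions and widths, so the width of a domain and the presence of peaks in all 6 lists are description and were not tested.

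The 6 libraries were made by CUT&RUN, in which an antibody tethers micrococcal nuclease at the mark and the DNA it cuts free is sequenced. The wild-type group had 3 libraries. The other group, also of 3, came from Ppp2ca-deficient mice and is called knockout here after the labels. Ppp2ca encodes a catalytic subunit of protein phosphatase 2A. All 6 came from primary hematopoietic stem cells of bone marrow. The sources used here do not give age, sex, strain, the Cre or promoter used or the deleted part of Ppp2ca. No label carries an animal number, and each library was taken as 1 mouse. Values are given below in the order wild-type replicates 1, 2 and 3, then knockout replicates 1, 2 and 3. A wider peak can come from more cells with the mark or from more of the mark in each cell, and in a bulk library these cannot be told apart.

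H3K27ac is placed by the acetyltransferases p300 and CBP and marks the nucleosomes around active promoters and enhancers. At an active promoter the mark flanks the transcription start, where the nucleosome itself is often displaced, and runs into the beginning of the transcribed gene. Promoters rich in G, C and the dinucleotide CpG are typical of genes used in most cell types. Long stretches of active histone marks over a promoter have been described at genes that are highly transcribed or that define a cell type.

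The promoter sequences below are shown because they include CpG-rich and CpG-poor promoters under the domains, and because 2 of them show that the widest domains lie on copied sequence. They cover 250 bases before to 50 bases after a RefSeq start, are credited to the RefSeq annotation of GRCm38.p6, and read 5′ to 3′ along the gene. Capitals mark GGGCGG, the box bound by SP and KLF factors, and CCAAT, the box bound by NF-Y, on either strand. H2ac24 lies at chr13:21833426-21833725 on the minus strand, H2ac23 at chr13:21810117-21810416 on the plus strand, Hnrnpul1 at chr7:25754710-25755009 on the minus strand, Hnrnpa3 at chr2:75659009-75659308 on the plus strand and BC035044 at chr6:128891075-128891374 on the minus strand. Hdlbp lies at chr1:93478868-93479167 on the minus strand. Arhgap30, at chr1:171388710-171389009 on the plus strand, belongs to a region just under the width limit.
H2ac24: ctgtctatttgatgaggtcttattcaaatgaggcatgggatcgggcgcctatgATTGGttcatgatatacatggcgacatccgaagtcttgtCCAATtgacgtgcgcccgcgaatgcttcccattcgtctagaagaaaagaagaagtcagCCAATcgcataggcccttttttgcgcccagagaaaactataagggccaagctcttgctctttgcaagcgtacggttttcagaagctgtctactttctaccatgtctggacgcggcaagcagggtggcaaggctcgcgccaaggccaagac
H2ac23: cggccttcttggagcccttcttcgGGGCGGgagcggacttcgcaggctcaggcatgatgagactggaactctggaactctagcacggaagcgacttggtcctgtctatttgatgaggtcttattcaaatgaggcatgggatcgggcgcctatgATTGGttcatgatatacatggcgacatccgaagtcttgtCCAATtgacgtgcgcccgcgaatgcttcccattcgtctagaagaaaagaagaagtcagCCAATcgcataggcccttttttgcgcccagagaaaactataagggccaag
Hnrnpul1: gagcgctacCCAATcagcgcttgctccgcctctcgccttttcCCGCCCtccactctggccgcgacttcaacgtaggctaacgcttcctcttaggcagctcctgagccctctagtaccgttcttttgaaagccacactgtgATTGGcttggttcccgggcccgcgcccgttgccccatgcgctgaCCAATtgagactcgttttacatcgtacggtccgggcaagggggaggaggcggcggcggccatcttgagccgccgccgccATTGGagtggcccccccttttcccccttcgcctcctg
Hnrnpa3: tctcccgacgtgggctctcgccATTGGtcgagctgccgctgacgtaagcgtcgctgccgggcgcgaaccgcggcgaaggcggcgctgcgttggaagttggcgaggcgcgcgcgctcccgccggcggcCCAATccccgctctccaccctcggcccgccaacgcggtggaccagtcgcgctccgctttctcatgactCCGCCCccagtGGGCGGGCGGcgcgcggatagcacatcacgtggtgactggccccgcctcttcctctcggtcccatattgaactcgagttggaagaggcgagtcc
BC035044: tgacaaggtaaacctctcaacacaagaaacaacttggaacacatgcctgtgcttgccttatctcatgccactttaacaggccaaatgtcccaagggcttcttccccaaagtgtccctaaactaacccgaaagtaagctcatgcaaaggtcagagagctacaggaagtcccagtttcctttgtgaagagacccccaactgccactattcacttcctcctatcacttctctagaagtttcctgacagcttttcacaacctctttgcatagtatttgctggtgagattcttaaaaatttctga
Hdlbp: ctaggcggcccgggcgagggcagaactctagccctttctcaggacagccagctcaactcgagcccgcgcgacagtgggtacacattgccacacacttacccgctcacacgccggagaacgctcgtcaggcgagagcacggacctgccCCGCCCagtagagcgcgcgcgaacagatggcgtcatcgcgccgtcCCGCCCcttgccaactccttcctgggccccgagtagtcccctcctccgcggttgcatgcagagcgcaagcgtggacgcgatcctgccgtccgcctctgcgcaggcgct
Arhgap30: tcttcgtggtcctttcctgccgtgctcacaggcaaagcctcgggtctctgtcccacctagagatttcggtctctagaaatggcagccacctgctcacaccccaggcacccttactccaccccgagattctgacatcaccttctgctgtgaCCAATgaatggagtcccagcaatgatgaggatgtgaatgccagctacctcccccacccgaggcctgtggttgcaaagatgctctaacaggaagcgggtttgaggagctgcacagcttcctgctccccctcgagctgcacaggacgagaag
The H2ac24 and H2ac23 promoters share an unbroken run of 200 identical bases. Hnrnpa3, with 44 CpG dinucleotides in 300 bases and 70.3% G and C, and BC035044, with 1 CpG and 44% G and C, show how far the promoters differ in composition.

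Some facts of the libraries touch every width below. The lists held 22066, 29945 and 21917 peaks in the wild type and 50453, 34016 and 35629 in the knockout. The lists carry no read totals. The caller's fold and p-value can be solved for the fragments behind each peak, and the genome-wide background they share was 0.499, 0.584, 0.498, 0.738, 0.465 and 0.827 fragments per 200 bp. Knockout replicate 2 had the lowest background and knockout replicates 1 and 3 the highest. The part of depth in the width differences was not tested. Among markers of hematopoietic stem cells, Runx1, Tal1 and Lyl1 had a gene-end peak in all 6 lists, and Hlf, Mecom, Gata2, Erg, Slamf1, Ly6a and Cd34 had none in any. Erythroid markers and markers of other organs had no gene-end region shared by the 6 lists, at 0 of 19 and 0 of 24 matched genes. Mature myeloid markers had 3 of 20 (Csf1r, Csf3r and Cd68), lymphoid markers 2 of 22 (Igll1 and Cd3d), megakaryocyte markers 2 of 15 (Itga2b and Gp1ba) and endothelial and stromal markers 1 of 20 (Pecam1). The part of other cells in the peaks was not tested.

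The widest peak in a domain was longer in the knockout lists than in the wild-type lists in most domains. The domains measured 2507 to 3655 bp, with a median of 2681 bp, and covered 316.762 kb in all. The median of the widest peak in a domain was 590, 632, 621, 1709, 1080 and 1814 bp, or 614 ± 21.8 bp in the wild type and 1534 ± 397 bp in the knockout (SD, n = 3). No wild-type list had a single peak of 2500 bp or more in any domain. Knockout replicate 1 had 10 such peaks, replicate 2 had 0 and replicate 3 had 16, and 23 of the 115 domains held at least 1. The widest peak of a domain came from knockout replicate 3 in 59 domains, from replicate 1 in 48 and from replicate 2 in 7. In the Nop58 domain it came from wild-type replicate 3.

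In 70 of the 115 domains (60.9%) the widest peak of each knockout list exceeded that of each wild-type list; the same held for 54.2% of all 5489 shared regions and for 63.1% of the narrower regions. The groups overlapped in 45 domains, and no domain had all wild-type peaks above all knockout peaks. The mean knockout width was 2.36 times the mean wild-type width in the median domain, against 2.09 times in the median narrower region. The extremes were Tor1a, which encodes an ATPase of the endoplasmic reticulum, and Mtmr3, which encodes a lipid phosphatase. Tor1a had widest peaks of 200, 245, 224, 805, 1123 and 2252 bp, a ratio of 6.25, with no overlap of the groups. In narrower regions the smallest value of the widest peak was 200 bp in every list. The Tor1a ratio thus rests on wild-type widths at or near the floor of the lists. Mtmr3 had 786, 615, 794, 951, 514 and 649 bp, a ratio of 0.963 and the lone ratio below 1. Its 2915 bp were reached by joining 2 or 3 short peaks of each list.

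**Figure D1:**
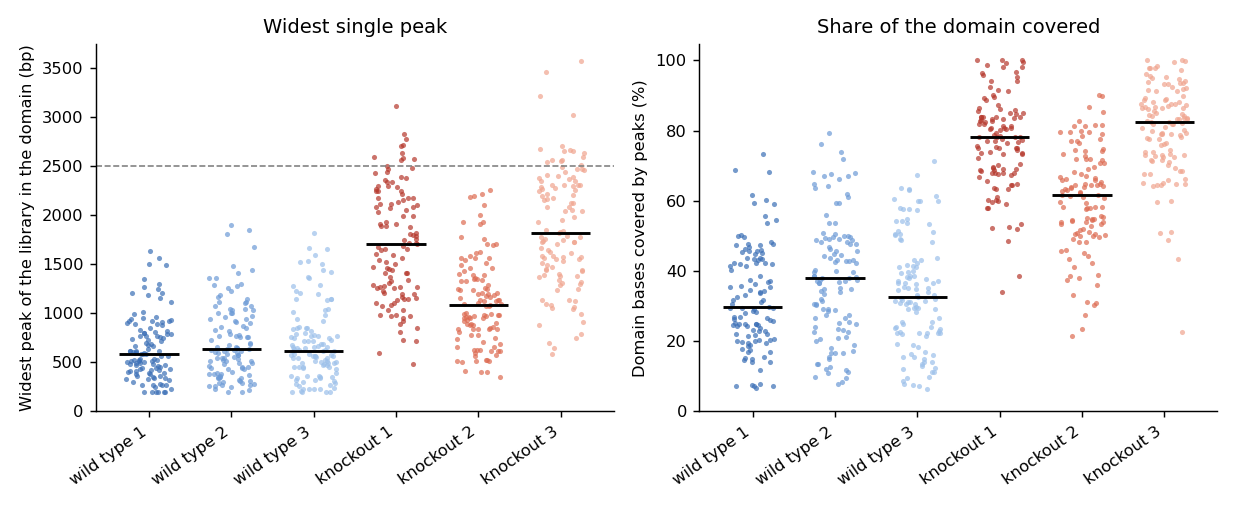
Widest single peak (left, bp) and share of bases covered by peaks (right, %) in each of the 115 domains, by library; points are domains, bars are medians and the dashed line is 2500 bp. The wild-type medians of the widest peak lie between 590 and 632 bp and those of the knockout between 1080 and 1814 bp.

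Coverage, like width, was higher in the knockout lists. Peaks covered 32.5%, 38.4%, 33.9%, 76.7%, 60.4% and 80.4% of all domain bases, or 34.9% ± 3.11 in the wild type and 72.5% ± 10.7 in the knockout (SD, n = 3). In narrower regions they covered 38.3%, 41.8%, 38.9%, 79.5%, 65.6% and 81.8% of the bases. In 93 domains (80.9%) each knockout list covered more bases than each wild-type list, against 59.4% of all shared regions. Nearly all domains reached the width limit through knockout peaks, so this share follows in part from the choice and is not read as an excess. No such share was taken over narrower regions. The part of a domain covered by any wild-type peak had a median of 62.9%, and the part covered by all 3 wild-type lists a median of 10.3%. For the knockout these medians were 100% and 45.7%. Peaks of different libraries fell on different parts of a domain: 37 domains had no base that was covered in all 6 lists, and the median length covered in all 6 was 226 bp. These 2 values have no counterpart for other shared regions and are not read as particular to domains.

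The number of peaks differed less than their width. The lists had a mean of 1.77, 1.97, 1.75, 1.78, 2.30 and 1.65 peaks per domain, and 1 to 4 peaks in any domain. A single peak made up the list's share of the domain in 40%, 29.6%, 44.3%, 38.3%, 15.7% and 45.2% of domains; in narrower regions these shares were 69.4% to 85.4%. The groups overlapped in peak number in 110 domains. No share over all shared regions stands beside this count, which describes the domains alone. Ywhah, a 14-3-3 protein gene, Mapk9, which encodes the kinase JNK2, Picalm, a clathrin assembly gene, and Tbc1d22a had 1 peak in each wild-type list and 2 or 3 in each knockout list. Cd53, a tetraspanin gene of blood cells, was the reverse, with 3 peaks in each wild-type list and 1, 2 and 2 in the knockout lists. In Cd53 the knockout peaks were wider, at 2832, 661 and 1310 bp against 620, 457 and 432 bp.

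**Figure D2:**
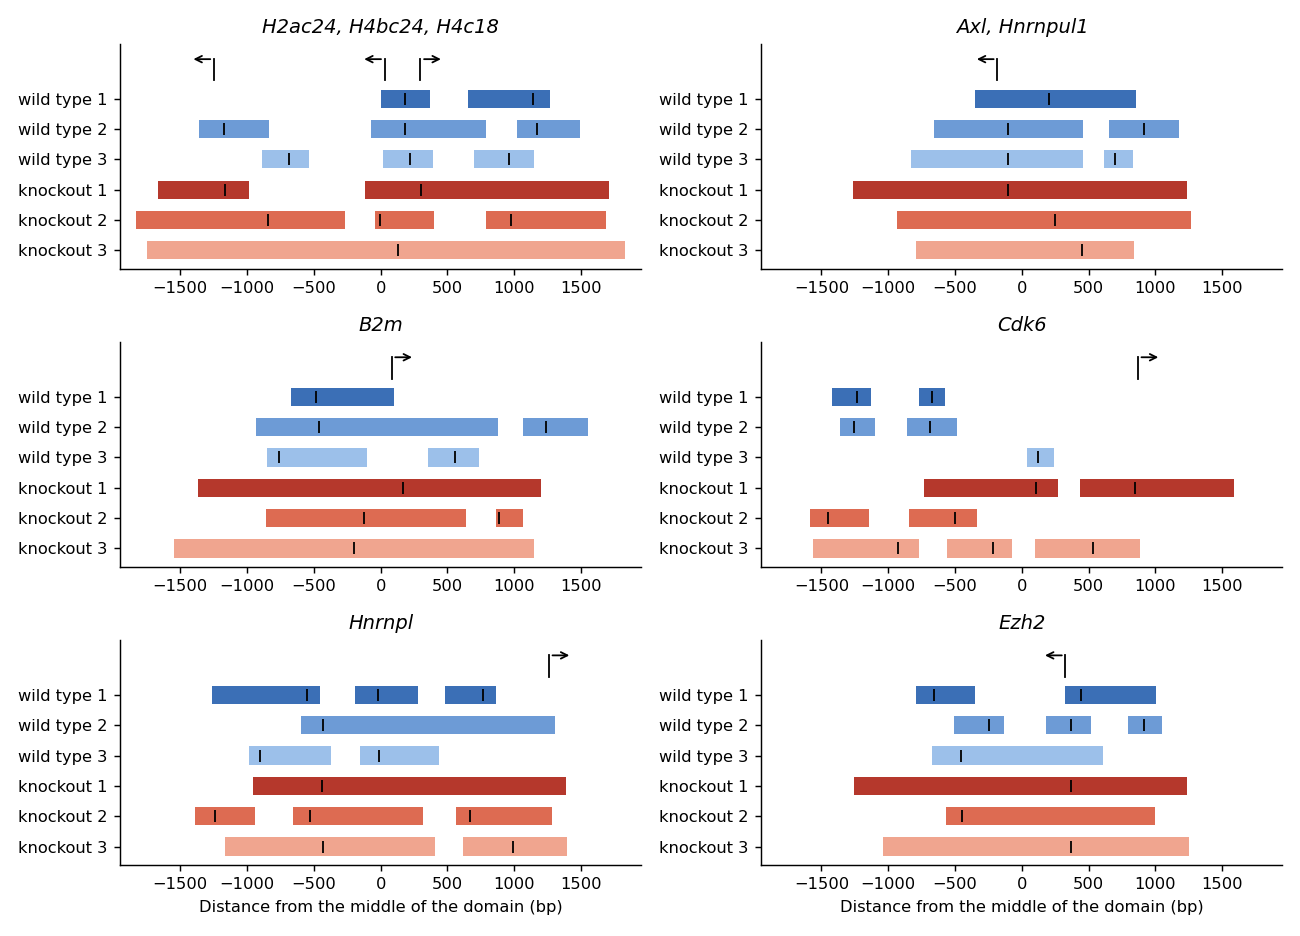
Peaks of each library in 6 domains, drawn as bars by distance from the middle of the domain (bp), with the summit as a black tick and RefSeq starts as arrows. In the H2ac24 domain a single peak of knockout replicate 3 spans 3577 bp, while wild-type replicate 1 has 2 peaks of which the wider measures 614 bp.

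The 2 widest domains lay 19219 bp apart in a histone gene cluster on chromosome 13. The domain of H2ac24, H4bc24 and H4c18, names as RefSeq gives them, ran from 21831618 to 21835272 (3655 bp). Its widest peaks were 614, 859, 449, 1820, 1560 and 3577 bp. The domain of H2ac23, H2bc23 and H4c17 ran from 21808863 to 21812398 (3536 bp), with widest peaks of 361, 632, 652, 1683, 1261 and 3464 bp. In both, the widest peak of each knockout list exceeded the widest peak of each wild-type list, and knockout replicate 3 covered the domain with 1 peak. These genes encode core histones that are made during DNA replication.

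The same 2 domains share near-identical sequence, so their peaks are uncertain. The 300 bases of the H2bc23 promoter are identical to those of H4bc24, and the H4c17 and H4c18 promoters share a run of 285 bases. A second such pair lay 4203 bp apart on chromosome 3: H2ac18 with H3c14 (2934 bp) and H2ac19 with H3c15 (2691 bp), whose promoters share runs of 219 and 231 bases. The sources used here do not state how reads that map to more than 1 place were treated, so the fragments of each copy cannot be assigned with certainty. Over all 135 RefSeq starts in domains, 10 (7.41%) shared a run of at least 50 bases with the promoter of a gene elsewhere, and all 10 belonged to these 4 domains. The share was 1.21% in narrower regions and 7.75% over all 21045 promoters. The start of H2bc9, in a further histone domain, had no such run. H3f3a, which encodes the replacement histone H3.3 and had no such run either, had widest peaks of 587, 648, 687, 2082, 1235 and 2045 bp in a domain of 3309 bp.

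In all, 156 protein-coding genes carried a domain, 0.721% of the 21631 in the table, and 17.9% of the genes lay at a gene-end region shared by the 6 lists. A domain touched 1 gene in 77 cases, 2 genes in 35 and 3 genes in 3. The genes were of many kinds: 18 of the 156 stood on any of 22 lists of blood, signalling, chromatin and housekeeping genes, and 13 of the 22 lists had no carrier. Carriers on a list are described below with some others of similar function, which were picked by name after the domains were known.

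Of 32 splicing genes, 28 lay at a shared gene-end region and 3 carried a domain: Hnrnpl, Luc7l2 and Ddx5. Hnrnpl, whose protein regulates alternative splicing, had widest peaks of 806, 1897, 613, 2338, 976 and 1573 bp, so the groups overlapped. Ddx5, an RNA helicase gene that shares its domain with Cep95, had 951, 762, 716, 1785, 1075 and 1732 bp, without overlap. Luc7l2, a component of the U1 particle, overlapped between groups at 885, 1677, 861, 2174, 1093 and 1097 bp. Off that list, Hnrnpul1, Hnrnpa3, Pcbp1, Ddx6, Zc3h4, Zc3h7a, Mbnl2 and Fubp1 also carried domains. Pcbp1, which encodes a poly(C)-binding protein, had 824, 1260, 1418, 2158, 1394 and 1397 bp. Ddx6, a helicase gene of mRNA decapping, had 597, 767, 1656, 1282, 954 and 2457 bp. In Pcbp1 and Ddx6 the widest wild-type peak exceeded 1 or more of the knockout peaks.

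Of 32 translation genes, 21 lay at a shared gene-end region and 3 carried a domain, and none of the 3 is a ribosomal protein gene. Pabpc1 encodes the cytoplasmic poly(A)-binding protein and had widest peaks of 504, 386, 475, 1273, 892 and 1374 bp. Eif5a, a translation factor gene, had 473, 913, 487, 2704, 1200 and 1323 bp. Eef1a1, which delivers aminoacyl-tRNA to the ribosome, had 610, 628, 750, 1409, 1908 and 1383 bp. The groups did not overlap in any of these 3. Vars, the valyl-tRNA synthetase gene, and the ribosome assembly gene Nop58 also carried domains.

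Genes of signalling and growth control were represented by single members of several lists. Cdk6, a kinase of the G1 phase with a known role in the exit of blood stem cells from rest, was the 1 carrier among 30 cell cycle genes, 13 of which lay at shared gene-end regions. Its domain (chromosome 5, 3341438 to 3344613, 3176 bp) was pieced together from short peaks, with widest peaks of 296, 369, 200, 1156, 512 and 791 bp. The groups did not overlap in width. The best peaks had −log10 p-values of 4.40, 3.79, 4.49, 9.51, 4.53 and 5.09. These widths thus rest on weak peaks in all lists but knockout replicate 1. The 200 bp of wild-type replicate 3 is the smallest value of that list in any domain. The peaks of wild-type replicates 1 and 2 lay at about the same 2 places in the domain and the peak of wild-type replicate 3 lay elsewhere, as the map of peaks shows. Rheb, the GTPase that activates mTORC1, and Spred2, an inhibitor of RAS-ERK signalling, were the carriers among 32 PI3K and RAS genes. Rheb had 848, 1185, 508, 1105, 1463 and 2399 bp, with overlap. Spred2 had 411, 543, 804, 2439, 844 and 2469 bp, without overlap. Csnk1a1, the casein kinase 1 alpha gene, Wee1, a kinase gene of the G2 checkpoint, and Dyrk1a were further kinase genes with domains. None of 28 genes of PP2A subunits and regulators carried one, although 14 lay at shared gene-end regions.

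Immune and blood-cell genes with domains included B2m, the light chain of class I histocompatibility molecules, and it was the 1 carrier among 30 interferon and antigen presentation genes, 17 of which lay at shared gene-end regions. B2m had widest peaks of 770, 1806, 754, 2565, 1497 and 2701 bp in a domain of 3099 bp. Wild-type replicate 2 exceeded knockout replicate 2 there, so the groups overlapped. Ifngr2, a chain of the interferon gamma receptor, had 947, 1223, 850, 1308, 2185 and 1381 bp, without overlap. Tgfb1, which encodes a cytokine known to hold blood stem cells at rest and which shares its domain with B9d2, had 344, 550, 447, 1928, 1329 and 1814 bp, also without overlap. Cd53, Fcer1g, Ptpn22, Stap1, Nrros and Ifitm2 are further carriers with known roles in blood cells. None of 30 genes of stem cell identity carried a domain; 6 of them lay at shared gene-end regions (Runx1, Tal1, Lyl1, Etv6, Ptprc and Zfp36l2). Mature myeloid, lymphoid, megakaryocyte and endothelial markers had 0 carriers.

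Among transcription and chromatin genes, Elf1 was the 1 carrier of 40 blood transcription factor genes, 12 of which lay at shared gene-end regions. Elf1 and Elf2 encode related ETS factors. Elf1, with Wbp4, had widest peaks of 333, 387, 202, 1205, 1244 and 1495 bp. Elf2 had 348, 1295, 297, 2133, 1135 and 1644 bp in a domain of 3099 bp. The groups were apart in Elf1 and overlapped in Elf2. Kmt2e and Ezh2, the catalytic subunit of the polycomb complex PRC2, were the carriers of 30 histone methylation genes, 12 of which lay at shared gene-end regions. Kmt2e had 449, 870, 519, 1994, 1582 and 2671 bp, and Ezh2 had 680, 377, 1279, 2486, 1562 and 2292 bp, both without overlap. Ctcf, Nfya, Nfe2l2, Atf1, Ddit3, Mnt, Arid2, Mta3, Ino80d, Ncoa2, Nrip1 and Crtc2 were further carriers that encode transcription factors, cofactors or chromatin proteins. Nfe2l2, the gene of the oxidative stress factor NRF2, lay 42195 bp from the domain of Hnrnpa3 and had 961, 1103, 1669, 2053, 1105 and 2179 bp. Acetylation enzymes and readers had 0 carriers of 30, with 10 at shared gene-end regions; the H2-DMa domain, however, held an annotated start of Brd2, a reader gene whose ends in the gene table lay outside the window.

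Of 32 cytoskeleton and adhesion genes, 20 lay at shared gene-end regions and Vim and Wasf2 carried domains. Vim, the intermediate filament vimentin, had widest peaks of 760, 443, 496, 1197, 523 and 1440 bp with 1 to 4 peaks per list, and the groups overlapped. Wasf2, which drives actin assembly below the membrane, had 494, 793, 529, 2638, 990 and 2414 bp, without overlap. Cltc, the clathrin heavy chain gene, had 896, 1039, 1147, 2032, 1934 and 1954 bp, also without overlap. Lists with many shared gene-end regions and no domain were housekeeping and metabolism (17 of 30), NF-kB and cytokine signalling (16 of 32), immediate early genes (11 of 25) and p53 and apoptosis (9 of 30). Carriers were most frequent in the splicing and translation lists, at 9.38% each, and in the list of replication-dependent histone genes, at 9.09%. Each share rests on 3 genes, and 0.721% of all genes were carriers. A domain can arise only at a shared gene-end region, where 87.5%, 65.6% and 51.5% of these lists lay, against 17.9% of all genes. The carrier shares are thus not read as an excess, and no test of the lists was made. The 3 histone genes on the list all lie in the copied domains. That list lacks other histone genes with domains, among them H2bc9, which lies outside the copied domains.

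The 12 widest domains also held B4galt1, a galactosyltransferase gene, Ctsz, a lysosomal protease gene, and Sde2. B4galt1 (3395 bp) had widest peaks of 415, 1360, 1814, 2283, 1331 and 1851 bp, and Ctsz (3153 bp) had 516, 647, 471, 1539, 1204 and 1582 bp. Sde2 (3404 bp) lay 33692 bp from H3f3a and had 662, 1479, 846, 1502, 1253 and 2348 bp. Mnt, which encodes a repressor of the MYC network, had 1189, 691, 1197, 1369, 781 and 3220 bp, so that a single peak of knockout replicate 3 made up its whole domain. Arid2, a subunit of a SWI/SNF remodelling complex, had 1264, 904, 853, 2435, 841 and 1726 bp in a domain of 3148 bp shared with Gm38469. BC035044 and Clec2i (3499 bp) had 747, 599, 546, 1267, 1401 and 1053 bp. The gene models Gm34296 (3156 bp) and the pair Gm20783 and LOC108167694 (3112 bp) complete the group, with 275, 1074, 227, 1678, 1340 and 3020 bp and 1632, 1171, 1521, 3112, 1611 and 1739 bp. The groups overlapped in B4galt1, Sde2, Mnt, Arid2 and Gm20783, and did not in the others.

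By chromosome, 16 domains lay on chromosome 11 and 10 on chromosome 16, which is 4.94% and 8.77% of the shared gene-end regions there. The X chromosome had 0 domains of 52 such regions, and chromosomes 10 and 19 had 1 each, of 155 and 132. In 5 pairs the domains lay within 50 kb of each other: the 2 histone pairs, Fmc1 with Luc7l2, H3f3a with Sde2, and Hnrnpa3 with Nfe2l2.

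Within its own list, a domain's best peak ranked high but not at the top. Peaks were ranked by the authors' −log10 p-value, as a percentile in which 0 is the best. The median percentile was 12.8, 7.60, 8.82, 5.09, 9.45 and 7.93 in domains and 17.5, 12.97, 17.5, 5.18, 8.63 and 7.19 in narrower regions. Domains thus stood ahead of narrower regions in the 3 wild-type lists and level or slightly behind in the knockout lists, as a description within each list. A domain also offered more peaks from which the best was taken. The lists had means of 1.65 to 2.30 peaks per domain and 1.16 to 1.345 per narrower region. The part of this in ranks and summit heights was not tested. The best rank reached by any domain was 112, 98, 110, 180, 280 and 240. Narrower regions reached ranks between 34 and 43 in every list.

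The authors' fold enrichment at the summit was lower in domains than in narrower regions in the knockout lists and similar in the wild-type lists. Its median in domains was 3.85, 4.05, 4.198, 4.23, 4.14 and 4.17, against 4.004, 4.08, 4, 5.16, 4.90 and 5.28 in narrower regions. The share of domains with a fold below the median of the narrower regions was 57.4%, 52.2%, 43.5%, 91.3%, 85.2% and 91.3%. The fragments solved from fold and p-value show both parts of that ratio. The median domain had 10, 12, 11, 29, 19 and 32 fragments over the summit, against 7, 8, 7, 22, 14 and 24 in narrower regions. The caller's local background was 1.72, 2.02, 1.72, 5.96, 3.84 and 6.86 fragments in domains and 0.940, 1.08, 0.940, 3.22, 2.02 and 3.62 in narrower regions. Both the summits and the caller's local background were higher in domains, in each of the 6 lists. No control library is stated, so this background may hold signal of the domain itself, and domains were chosen for width. The part of that choice in the background and fold was not tested.

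Knockout summits rested on more fragments in nearly all domains, and in about the same share of narrower regions. In 107 of 115 domains (93.0%) each knockout list had more summit fragments than each wild-type list, against 83.7% of the 5470 shared regions that could be solved in all lists and 92.5% of the narrower regions. Fragment numbers scale with depth. Divided by each library's genome-wide background, the domain median was 20.04, 20.5, 22.1, 39.3, 40.9 and 38.7. This division was made for domains only, so the values are not read as a trait of domains. Before division, the medians of narrower regions were also higher in the knockout lists, at 7, 8, 7, 22, 14 and 24 fragments. Peaks with an authors' q-value of at most 0.05 were also counted. All 3 wild-type lists had such a peak in 46 of 115 domains, beside 1239 of 5489 shared regions (22.6%). All 3 knockout lists had it in 112 of 115 domains, beside 4958 of 5489 (90.3%). By list, the shares were 60.9%, 71.3%, 67.8%, 100%, 97.4% and 100% of domains. In narrower regions they were 47.7%, 56.6%, 47.9%, 99.3%, 96.2% and 99.6%. Domains offered more peaks per region. In 13 domains no wild-type list had such a peak, a count without a share over all shared regions beside it.

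**Figure D3:**
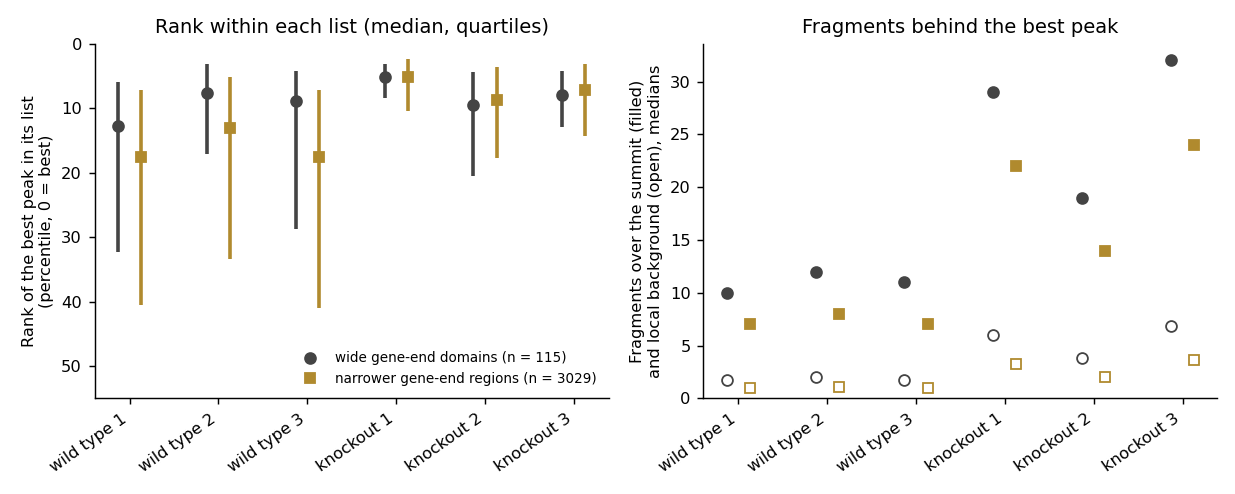
Left, percentile rank of the best peak in each list (0 is best; point, median; line, quartiles) for the 115 domains and 3029 narrower regions; right, median fragments over the summit (filled) and in the local background (open). Summit medians in domains are 10 to 12 fragments in wild-type lists and 19 to 32 in knockout lists.

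The domains with the best rank in their weakest list were those of Hnrnpul1 with Axl, Hnrnpa3, and Hdlbp with Septin2. Hnrnpul1, which encodes a nuclear RNA-binding protein and whose promoter is printed above, had its start inside the domain (chromosome 7, 25753680 to 25756207, 2528 bp), while Axl, a receptor tyrosine kinase gene, had only its other end near. Its best peaks stood at percentiles 1.87, 2.81, 1.01, 1.17, 1.58 and 2.28, with 16, 14, 17, 41, 28 and 42 summit fragments. Its widest peaks were 1204, 1116, 1289, 2497, 2196 and 1629 bp, without overlap. Hnrnpa3 (chromosome 2, 75657910 to 75660435, 2526 bp) had percentiles of 0.503, 0.708, 1.09, 0.823, 2.91 and 0.811. Hdlbp, the RNA-binding protein vigilin, and Septin2 start on opposite strands in a domain at 93477637 to 93480225 of chromosome 1 (2589 bp), with percentiles of 0.965, 1.03, 1.37, 1.37, 3.27 and 1.87. Hdlbp had widest peaks of 1114, 1285, 1032, 2589, 2108 and 2168 bp, again without overlap.

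At the other end, some domains were weak in 1 or more lists. Over the 115, the rank in the weakest list had a best percentile of 2.81, a median of 27.1 and a worst of 83.2, the last at Phf3. Phf3 had percentiles of 43.3, 41.8, 83.2, 5.08, 11.5 and 5.90 and widest peaks of 272, 305, 366, 1452, 1161 and 2057 bp. BC035044 ranked at 10.5, 0.598, 30.9, 19.5, 52.6 and 9.83, so its best list was wild-type replicate 2 and its weakest knockout replicate 2.

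By width, many of the widest peaks of knockout replicates 1 and 3 lay in domains, and few of those of knockout replicate 2 and the wild-type lists. Of the 100 widest peaks of a list, 7, 7, 12, 33, 9 and 43 lay in domains, 31 to 68 in narrower regions and 19 to 38 in shared regions away from gene ends. The median width percentile of a domain's widest peak was 10.0, 7.81, 8.95, 1.05, 5.22 and 1.22. In narrower regions it was 16.9, 12.2, 16.6, 5.83, 8.81 and 8.17. Domains were chosen by width, and their widest peaks came mostly from knockout replicates 1 and 3. These values therefore follow in part from the choice.

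Most domains held a gene start, in a share close to that of narrower regions. With the strand that the RefSeq promoter table gives, 91 of 115 domains (79.1%) held an annotated start, 4 (3.48%) held the far end alone, and 20 (17.4%) belonged to a gene without a start in the table. In narrower regions these shares were 76.9%, 6.83% and 16.2%. Annotated starts numbered 0.426 per kb in domains and 0.652 per kb in narrower regions. In 2 of the domains, the starts were only those of genes with no end in the window. Starts on both strands lay in 15 domains (13.04%) and in 13.1% of narrower regions. In the 70 domains with a single start, the domain reached a median of 1089.5 bp before it and 1617.5 bp into the gene, against 596 and 943 bp in 1878 narrower regions. The longer side lay inside the gene in 61.4% of these domains and 71.9% of the narrower regions.

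Summits were spread along the domains instead of gathering at the start. Summits within 150 bp of the start made up 14.3%, 21.4%, 15.7%, 25.7%, 22.9% and 17.1% of domains, against 29.6% to 37.0% of narrower regions. The same domain also had its summit in different places in different mice. The median distance between the summits of 2 libraries averaged 501 bp over the wild-type pairs, 352 bp over the knockout pairs and 417 bp between genotypes. In narrower regions it averaged 258, 173 and 224 bp. A wider region leaves more room for such distances, and no test was made.

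**Figure D4:**
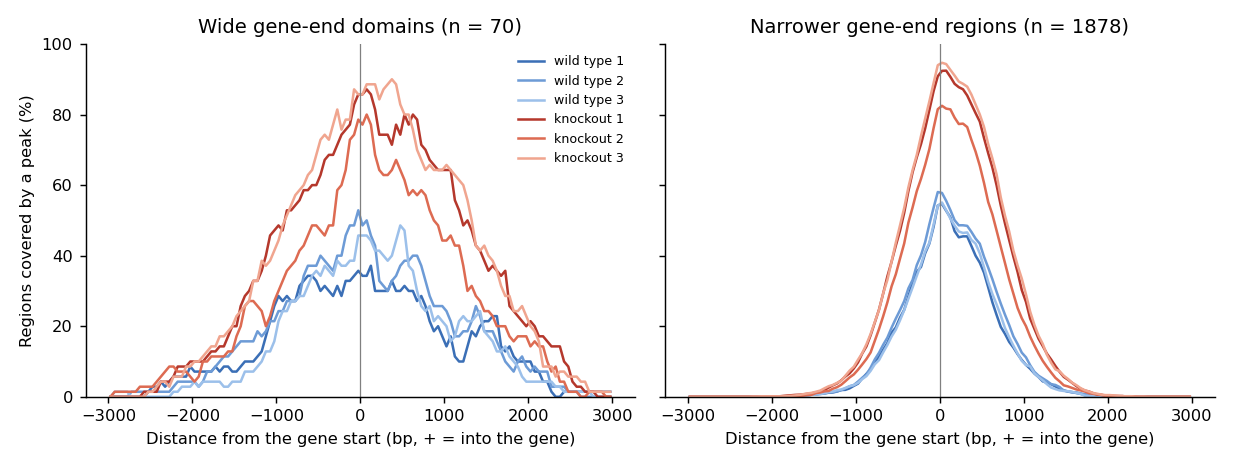
Share of regions covered by a peak (%) against distance from the gene start (bp, positive into the gene), by library, for 70 domains and 1878 narrower regions with a single start. Near the start, the highest coverage of domains is 37.1% to 52.9% in wild-type lists and 80% to 90% in knockout lists.

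To measure each library on domains that it had no part in choosing, each was left out in turn. Domains were chosen by the same rule from the other 5 lists, which gave 115, 106, 105, 59, 89 and 49 domains, and the left-out list was then measured. It had a peak in 93.0%, 98.1%, 98.1%, 100%, 100% and 100% of them. The median of its widest peak was 566, 640, 586, 1678, 1092 and 1727 bp. All knockout values lay above all wild-type values. The means were 597 ± 38.3 bp in the wild type and 1499 ± 353 bp in the knockout (SD, n = 3), a difference of 901.7 bp. The left-out library had no part in the choice, but the other lists of its genotype did, the set of domains differed each time, and nearly all domains reached the width limit through knockout peaks. The difference is therefore not independent of the choice and is given as a description. The planned two-sided exact permutation test gave p = 0.1, the smallest that 3 against 3 libraries allow, and nothing is read from it. Single peaks of at least 2500 bp stood in 0%, 0%, 0%, 11.9%, 0% and 14.3% of these domains, a difference of 8.72 percentage points (exact permutation p = 0.4), with the same limit.

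The numbers above also show which lists made the domains. Without knockout replicate 3 the rule found 49 domains and without knockout replicate 1 it found 59, while leaving out any other list left 89 or more. From the 3 wild-type lists alone, the rule gave 2 domains, Hnrnpl and Ddx6, and from the 3 knockout lists alone 92. Of these 92, 84 (91.3%) overlapped 1 of the 115, and 93.5%, 97.8% and 98.9% had a peak in wild-type replicates 1, 2 and 3. The median widest peak of the wild-type lists in these 92 was 567, 676 and 612 bp.

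The width limit cut through a continuous range. The domains just inside it were Ezh2 at 2507 bp, Phf3 at 2511 bp and Nop58 at 2512 bp. Just outside were Fam32a at 2497 bp and Arhgap30 with Nectin4 at 2491 bp. Arhgap30 had widest peaks of 681, 900, 613, 2303, 1114 and 2108 bp. Ppp2ca itself had a shared region of 1691 bp (chromosome 11, 52098444 to 52100134) with 1 peak in every list, 1232, 786, 1077, 1681, 1566 and 1606 bp wide. A peak at a gene end does not test the deletion, since the sources used here do not state which part was deleted.

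The promoters under domains were rich in G, C and CpG. The 135 starts in domains had a median of 65.7% G and C, against 61% at 3145 starts in narrower regions and 56.7% over all 21045 promoters of the table. The ratio of observed to expected CpG had medians of 0.870, 0.840 and 0.574, and the number of CpG in 300 bases medians of 27, 23 and 13. The promoters of 1 domain are not independent of each other, and the RefSeq table held 126 of the 156 carriers.

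**Figure D5:**
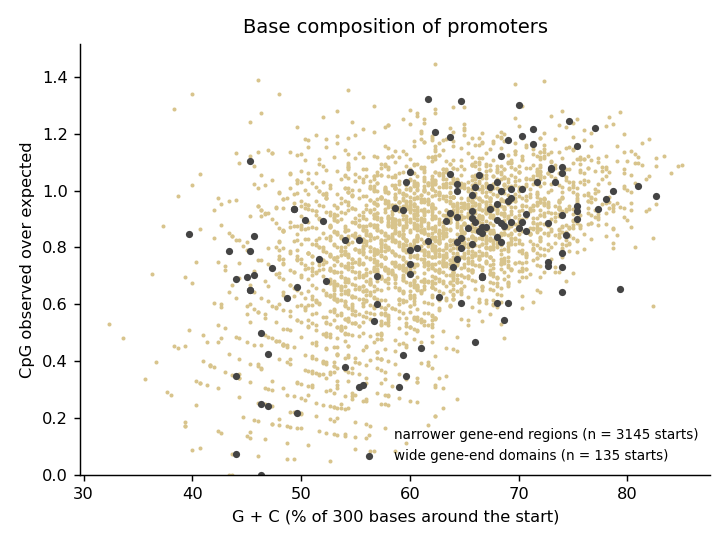
Observed over expected CpG against G and C content (%) for 300-base promoters of 135 starts in domains (dark) and 3145 starts in narrower regions (light). The median start in domains has 65.7% G and C and a CpG ratio of 0.870, and 2 domain starts, those of BC035044 and 1 of Muc13, lie below 0.1.

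Short motifs were searched on both strands of the same 300 bases. GGGCGG stood in 68.1% of promoters in domains, 66.5% in narrower regions and 46.7% of all promoters, and CCAAT in 37.8%, 40.3% and 38.5%. CCGGAAG, a core bound by ETS factors, was less frequent in domains than in narrower regions, at 11.1% (15 of 135) against 26.8%, and near the 11.7% of all promoters. GCATGCGC, part of the NRF1 motif, stood in 0.741% (1 of 135), 6.93% and 3.54%. TGACGT, the core of the cyclic AMP response element, stood in 10.4%, 18.98% and 8.58%. AAGATGGC, part of the YY1 motif, stood in 7.41%, 6.55% and 3.07%, and CACGTG in 13.3%, 11.0% and 7.91%. TGANTCA, which AP-1 factors bind, stood in 3.70% of promoters in domains, 3.88% in narrower regions and 7.04% of all promoters. The core of the blood factors of the GATA family, AGATAA, stood in 2.96%, 5.69% and 9.68%. For TGTGGT, bound by RUNX factors, the shares were 8.15%, 11.1% and 14.7%. The TATA box, searched as TATAAA, stood in 8.15%, 6.90% and 12.7%. Matches of the 11 motifs searched were counted separately and may overlap at their ends. These shares are descriptions without a test, and a match is not evidence of binding.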

How the data were processed

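The 6 deposited lists hold the MACS2 narrowPeak calls of 1 library each, with positions on GRCm38/mm10. The tools named in the submitters' processing notes are Trimmomatic, BWA, MACS2, deepTools, HOMER and also ChIPseeker; their versions, parameters and any control library are not stated there. Per peak, the authors deposited a score, the fold enrichment at the summit (a ratio), and the −log10 p-value and −log10 q-value. These are the authors' values, depend on depth, and served only to rank, filter and describe the peaks of their own list.

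Peaks were merged at an overlap of at least 1 bp. Genes and gene ends came from a RefSeq table of GRCm38.p6, and starts with strand from a RefSeq promoter table that matched 17274 of 21631 genes. Fragments over a summit and in the local background were solved as the whole number and background whose fold and Poisson tail match the deposited pair, at a tolerance of 0.002 in −log10 p. This worked for every best peak of the domains and failed for 81 of 32934 best peaks over all shared regions. The 616 of 618 gene list entries that matched did so by symbol or synonym.

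Left-out libraries were compared by a two-sided exact permutation test over 20 assignments. The members, gene lists and tests were chosen with earlier results of these data known. Genes were named by rule: the 12 widest domains, the 12 with the best rank in their weakest list, up to 4 carriers per list, Ppp2ca, and 3 regions on either side of the width limit. Some genes that the rules select are not reported here. Other carriers named were chosen after their values were seen. Alternatives were other widths, windows, merging rules and thresholds, a replicate block, leaving out each library, and 1 start per gene, the last added after seeing the data. Simulated data were used to test the procedure. Python 3.11.15, NumPy 2.4.6, pandas 2.3.3, SciPy 1.17.1 and Matplotlib 3.10.9 were used.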

Additional observations from a re-analysis of the deposited data

Results flagged for a closer look

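Outside chromosomes 1 to 19 and X, the lists held 510 peaks, which formed 12 regions shared by all 6 lists. Of these, 2 lay on the mitochondrial genome, 1 on chromosome Y and 9 on unplaced sequences. They were set apart because they are signal that the comparisons did not use. The widest measured 4539 bp, more than any of the 115 domains, and 2 reached 2500 bp.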

How the results depend on the processing

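The number of domains depended on the width limit and on 2 libraries. It was 115, and became 578 at 2000 bp, 15 at 3000 bp, 37 with peaks of q at most 0.05 and 207 when gaps of up to 200 bp were bridged. Carrier genes, 156, became 758, 22, 55 and 276. With a library left out, domains numbered 49 (without knockout replicate 3), 59 (without knockout replicate 1) and up to 115, and genes 60 and 79 up to 158. Merging at 100 bp of overlap gave 89 domains and lists of equal length 98.

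The share of domains in which each knockout list had the wider peak was 60.9% (95% Wilson interval 51.7 to 69.3, counting error only). That interval treats domains as independent, although all come from the same libraries. It does not measure the spread between mice and says nothing about genotype. The share fell to 46.7% at 3000 bp and 45.9% at q of at most 0.05. Without 1 library it ranged from 59.2% to 88.8%, the highest without knockout replicate 2. The share of domains with a start became 86.7% at 3000 bp. The difference in the left-out widest peak, 901.7 bp, ranged from 654 to 1140.75 bp without 1 library and from 837.8 to 1052.3 bp otherwise. The difference in peaks of at least 2500 bp, 8.72 points, was 17.8 at 2000 bp and 0 at 3000 bp, where the limit for peaks moves too, 5.40 with gaps bridged, and 0 to 14.4 without 1 library, with 0 without knockout replicate 3. The cause of these shifts was not tested.

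With the replicate block, the differences were 901.7 bp (exact sign-flip permutation p = 0.25, the smallest possible) and 8.72 points. The correlation of same-numbered deviations was 0.0184, -0.00418 and -0.00239, so the numbers were not taken to pair the mice. With 1 start per gene, added after the data had been seen, CCGGAAG stood in 10.8% of promoters in domains and 26.5% in narrower regions. A median of 10 to 12 fragments per wild-type summit limits the precision of wild-type widths.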
